A study of Mus musculus with 6 samples.

Results

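The genes described here encode the repressive Polycomb machinery and the enzymes that oppose it: Ezh1, Ezh2, Eed and Suz12 of Polycomb repressive complex 2 (PRC2), Bmi1, Cbx2, Cbx7 and Cbx8 of Polycomb repressive complex 1 (PRC1), and the histone H3 lysine 27 (H3K27) demethylases Kdm6a and Kdm6b. They were taken by gene name from the table of read counts, which lists 43346 genes. All 10 were found, and all 10 were among the 17589 genes that passed the filter on low counts. RNA-seq compared 3 control and 3 senescent samples of mouse adult fibroblasts (MAFs), primary ear cells of C57BL6/J mice that the methods call adult and female. The senescent group was X-irradiated with 20 Gy and then cultured over 21 days, while a sham procedure was used for the control group. Both groups were grown with 10% serum at 3% oxygen, were used at passages 3 to 8, received 100 nM dexamethasone for 2 hours and were collected 12 hours later. The contrast is therefore one of senescent against control cells at 1 time point after a glucocorticoid pulse. No label says whether the replicates came from separate cultures or animals, so the p-values measure only the spread between these samples.

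PRC2 places methyl groups on H3K27, with EZH2 or EZH1 as the catalytic subunit and EED and SUZ12 as required partners. Canonical PRC1 reads that mark through a CBX chromodomain protein, contains a PCGF subunit such as BMI1, and ubiquitylates histone H2A. KDM6A (UTX) and KDM6B (JMJD3) remove methyl groups from H3K27. In fibroblasts, Polycomb complexes are known for holding down the Ink4/Arf locus, whose products p16 and ARF halt the cell cycle, and EZH2 is known as an E2F-regulated gene of dividing cells.

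Total counts lay between 50288454 and 82229553 per library, and a count of 3 was worth 0.0355 to 0.0613 CPM (read counts scaled to the library size, with TMM factors). Although the methods name female mice, Y-linked genes were counted in all 6 libraries (values beside Kdm6a). Senescent replicate 3 stood apart. The squared difference between it and the other senescent libraries was, in the median gene, 14.7 and 19.9 times that expected from counting, against 2.12 times between senescent replicates 1 and 2 and 1.76 to 4.38 times among the controls. Markers listed for cell types showed fibroblast genes at a summed level of 17810 to 19900 CPM in the control group and 6709 to 8011 CPM in senescent libraries, with 3 of 9 higher and 5 of 9 lower. Chondrocyte genes summed to 4808 to 5327 CPM in the control group and 352 to 431 CPM in senescent libraries, and all 6 tested of 7 were lower (Matn1, the other one, stayed under 1 CPM). Macrophage markers summed to 5.57 to 6.03 CPM in control and 9.70 to 11.6 CPM in senescent libraries, with all 4 tested of 6 higher and Adgre1, Itgam and Tyrobp under 1 CPM throughout. Endothelial markers summed to 2.43 to 2.83 CPM in control and 7.38 to 8.08 CPM in senescent libraries. All 4 were higher, with Cdh5 under 1 CPM throughout. By the calls defined below, 36.2% of all tested genes were higher and 34.1% were lower. Keratinocyte markers summed to at most 4.08 CPM, skeletal muscle markers to 27.7 CPM, and Schwann and melanocyte markers to 4.43 CPM in any library. All 18 proliferation genes fell, with a median log2 fold change of -3.88 and a summed level of 2748 to 2806 CPM in the control group and 236 to 239 CPM in senescent libraries. The part of these shifts in the results that follow was not tested, and in such bulk samples fewer cells of a type and less RNA per cell cannot be told apart.

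At levels scaled to the library, 6 of the 10 genes were called lower in the senescent group and 2 were called higher. RNA per cell was not measured. Ezh2, Cbx2 and Kdm6b fell the most, Ezh1, Suz12 and Kdm6a fell less, Eed and Bmi1 rose, and Cbx7 and Cbx8 did not pass the test. These calls are at an adjusted p under 0.05 (edgeR quasi-likelihood test, Benjamini-Hochberg over all tested genes), which 70.3% of the tested genes met. Of the tested genes, 36.2% were called higher and 34.1% were called lower, so the share called among the 10 genes, 80%, lay near the background, and their direction is described without a test. At the limit in the study's methods, an unadjusted p under 0.05 with a log2 fold change over 1 in size, 3 of the 10 genes were called, all lower, where 30.1% of tested genes were called in either direction and 12.3% were called lower. The paper's results name a smaller p limit for these samples, and Kdm6b lay above it (unadjusted edgeR p = 7.20e-05). The groups did not overlap for 8 of the 10 genes, against 75.3% of tested genes. The median log2 fold change was -0.36 over the 10 genes and 0.0085 over all tested genes.

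**Figure D1:**
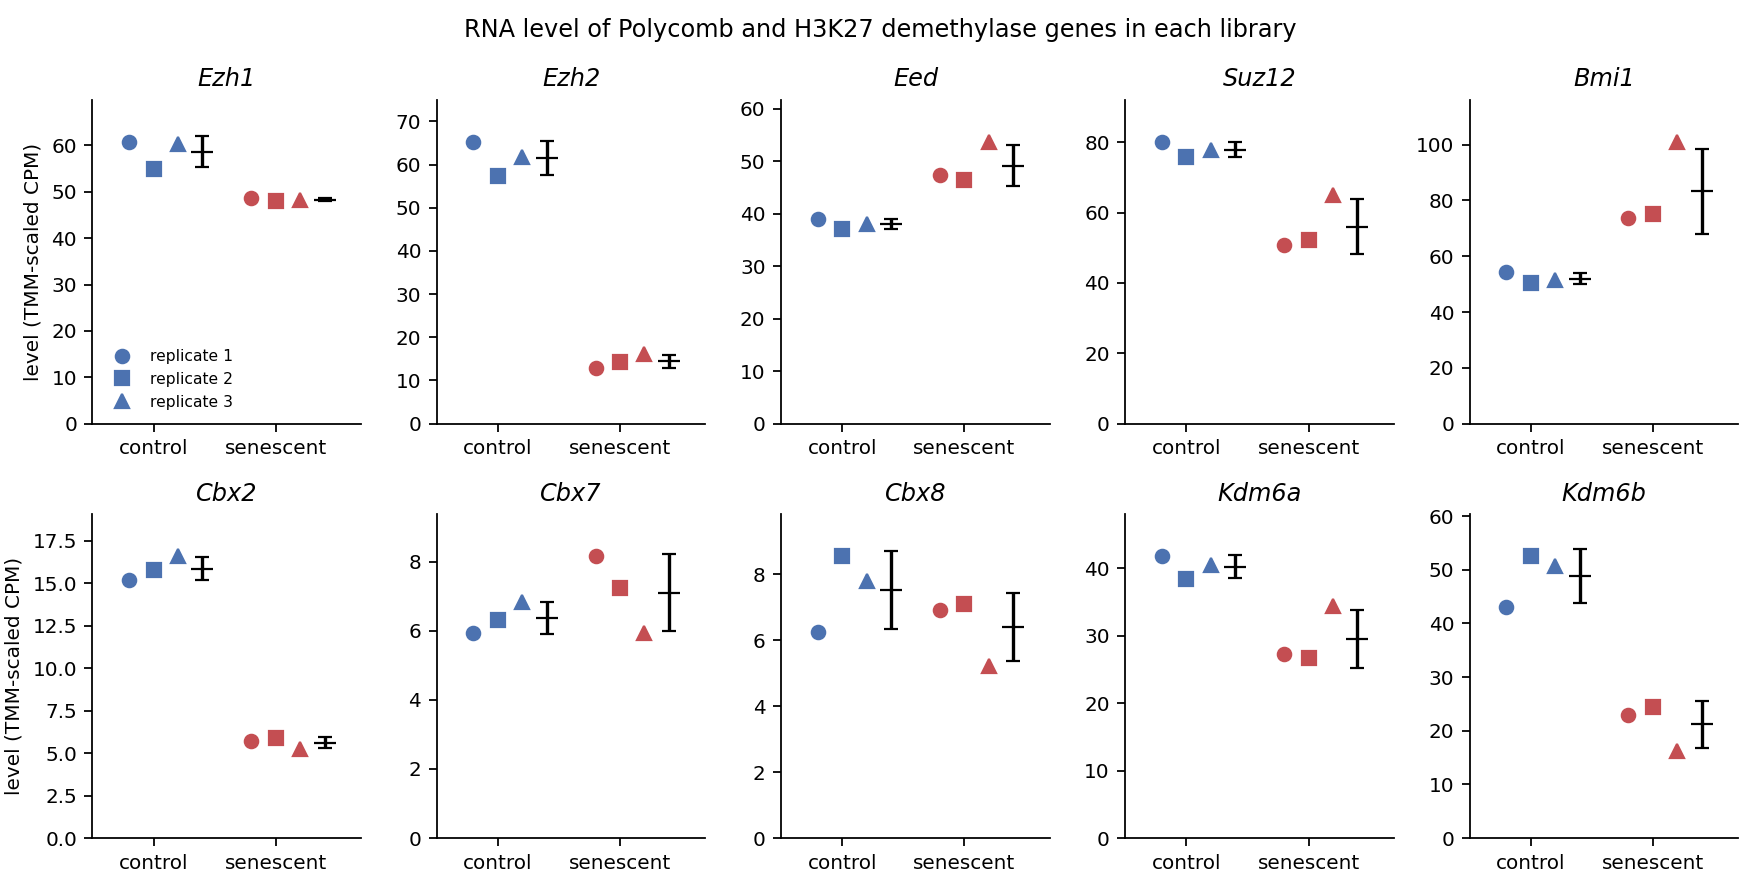
Level of each of the 10 genes in TMM-scaled CPM (vertical axes from 0) in the 3 control libraries (blue) and the 3 senescent libraries (red), with the marker shape giving the replicate and the black bar the mean ± SD of the group. Ezh2, Cbx2 and Kdm6b lie well below control in every senescent library, Eed and Bmi1 lie above it, and the groups overlap for Cbx7 and Cbx8.

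Of the 4 PRC2 core genes, 3 fell and 1 rose. Ezh2, the catalytic subunit of dividing cells, lies on chromosome 6 at 47530274 to 47595341 of mm10 on the minus strand. Its level was 65.2, 57.3 and 61.8 CPM in control replicates 1 to 3, and 12.9, 14.3 and 16.0 CPM in senescent replicates 1 to 3. Each senescent library was far below each control library. Ezh2 averaged 61.4 ± 3.96 CPM in the control group and 14.4 ± 1.58 CPM in the senescent group (SD, n = 3 each), which is 0.235 of the control level (log2 fold change -2.09, SE 0.10, edgeR adjusted p = 7.20e-07). The size of this change exceeded that of 87.3% of tested genes. Across 16 alternative settings, the log2 fold change of Ezh2 lay between -2.40 and -2.01 and its call was kept in all 16.

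Ezh1, the paralog known to predominate in resting cells, lies on chromosome 11 at 101191115 to 101226463, also on the minus strand. It stood at 60.7, 54.8 and 60.4 CPM in the control group and 48.7, 48.0 and 48.3 CPM in senescent replicates 1 to 3. The groups did not overlap, although their ranges are close. The mean was 58.7 ± 3.32 CPM in the control group and 48.3 ± 0.362 CPM in the senescent group (log2 fold change -0.28, SE 0.06, edgeR adjusted p = 0.00391). With a term for the GC content of transcripts, described below, the value was -0.11 with an adjusted p of 0.0543 or -0.44 with an adjusted p of 3.72e-06, with the term fitted from genes of at least 10 CPM and from all tested genes, in that order here and for the other genes.

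Eed, which binds trimethylated H3K27 and stimulates the enzyme, lies on chromosome 7 at 89954656 to 89980983 on the minus strand. It was at 39.0, 37.1 and 38.1 CPM in the control group and 47.4, 46.3 and 53.6 CPM in senescent replicates 1 to 3, with no overlap. It was the PRC2 core gene that rose, to 1.29 times the control level (log2 fold change 0.37, SE 0.07, edgeR adjusted p = 0.00230). With the GC term the value was 0.44 or 0.13, and the call held in both fits.

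Suz12, a scaffold of the complex, lies on chromosome 11 at 79993106 to 80034123 on the plus strand. It was at 80.1, 75.9 and 77.7 CPM in control, and stood at 50.9, 52.3 and 64.9 CPM in senescent replicates 1 to 3. Senescent replicate 3 was the nearest to the controls, but all 3 senescent libraries were below them. The level fell to 0.720 of control (log2 fold change -0.47, SE 0.10, edgeR adjusted p = 0.00267). With the GC term the value was -0.55 or -0.86.

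The PRC1 genes moved apart, with 1 higher, 1 lower and 2 not called. Bmi1 (Pcgf4), known as a repressor of the Ink4/Arf locus, lies on chromosome 2 at 18677018 to 18686629 on the plus strand. It was at 54.3, 50.4 and 51.4 CPM in the control group and 73.6, 75.1 and 101 CPM in senescent replicates 1 to 3. All senescent libraries were higher than all controls, and replicate 3 was the highest. The mean went from 52.0 ± 2.00 to 83.2 ± 15.4 CPM, 1.60 times the control level (log2 fold change 0.68, SE 0.12, edgeR adjusted p = 0.00140). Without senescent replicate 3 the log2 fold change was 0.52, and with the GC term it was 0.58 or 0.26, called higher in each.

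Cbx2, a chromodomain subunit that compacts chromatin, lies on chromosome 11 at 119022962 to 119031270 on the plus strand. It was at 15.2, 15.8 and 16.6 CPM in the control group and at 5.74, 5.88 and 5.23 CPM in senescent replicates 1 to 3. The libraries within each group lay close together and the groups did not overlap. The level fell to 0.354 of control (log2 fold change -1.50, SE 0.09, edgeR adjusted p = 2.08e-06), and the values over all 16 alternatives ran from -1.53 to -1.11.

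Cbx8 lies at 119036305 to 119040969 on the strand opposite to Cbx2, and the downstream ends of both genes are 5035 bases apart. Cbx8 was not called. It was at 6.24, 8.53 and 7.79 CPM in the control group and 6.91, 7.08 and 5.21 CPM in senescent replicates 1 to 3. The groups overlapped, and the log2 fold change was -0.24 (SE 0.16, edgeR adjusted p = 0.213). This value depended on the GC term: it was 0.039 (edgeR adjusted p = 0.719) in one fit and -0.30 (edgeR adjusted p = 0.0134) in the other.

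Cbx7, known to extend the lifespan of cultured fibroblasts through the Ink4/Arf locus, lies on chromosome 15 at 79915807 to 79971119 on the minus strand. It was at 5.93, 6.33 and 6.85 CPM in the control group and 8.16, 7.24 and 5.92 CPM in senescent replicates 1 to 3. Senescent replicates 1 and 2 were above every control, while replicate 3 was below every control, so the groups overlapped. With all 6 libraries the log2 fold change was 0.15 (SE 0.13, edgeR adjusted p = 0.319). Without senescent replicate 3 it was 0.28 (edgeR adjusted p = 0.0146). With the GC term it was 0.49 (edgeR adjusted p = 0.000172) or 0.13 (edgeR adjusted p = 0.160).

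Both H3K27 demethylases fell. Kdm6b, the member that stimuli such as inflammatory signals are known to induce, lies on chromosome 11 at 69398508 to 69413675 on the minus strand. It was at 43.0, 52.5 and 50.7 CPM in the control group and at 22.9, 24.5 and 16.2 CPM in senescent replicates 1 to 3. Every senescent library was below every control, and replicate 3 was the lowest. The mean went from 48.8 ± 5.04 to 21.2 ± 4.41 CPM, 0.434 of the control level (log2 fold change -1.20, SE 0.16, edgeR adjusted p = 0.000245). Without senescent replicate 3 the log2 fold change was -1.03. With the GC term it was -0.76 or -1.16, so that Kdm6b no longer passed the study's limit on fold change in the former. An antisense gene, Kdm6bos, shares 4.11% of the exonic bases of Kdm6b, and Ezh2, Eed, Suz12 and Cbx7 also share 1.54% to 6.82% of theirs with a gene on the other strand. The libraries were stranded, but the strand setting used in the counting was not given in the sources used here.

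Kdm6a lies on the X chromosome at 18162575 to 18279936 on the plus strand. It was at 41.8, 38.5 and 40.5 CPM in the control group and 27.3, 26.7 and 34.5 CPM in senescent replicates 1 to 3, again without overlap. The mean fell from 40.3 ± 1.68 to 29.5 ± 4.31 CPM (log2 fold change -0.45, SE 0.11, edgeR adjusted p = 0.00564), and with the GC term the value was -0.51 or -0.81. Its Y-linked homolog Uty, which has little demethylase activity, was at 34.0 to 38.1 CPM in the control group and 29.3 to 40.7 CPM in senescent libraries. Uty was not called with all libraries (log2 fold change -0.13, edgeR adjusted p = 0.385) but was called lower without senescent replicate 3 and with either GC term. Uty, Ddx3y, Eif2s3y and Kdm5d, all on the Y chromosome, were counted in all 6 libraries at 29.3 CPM or more, and Xist was at no more than 0.397 CPM.

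**Figure D2:**
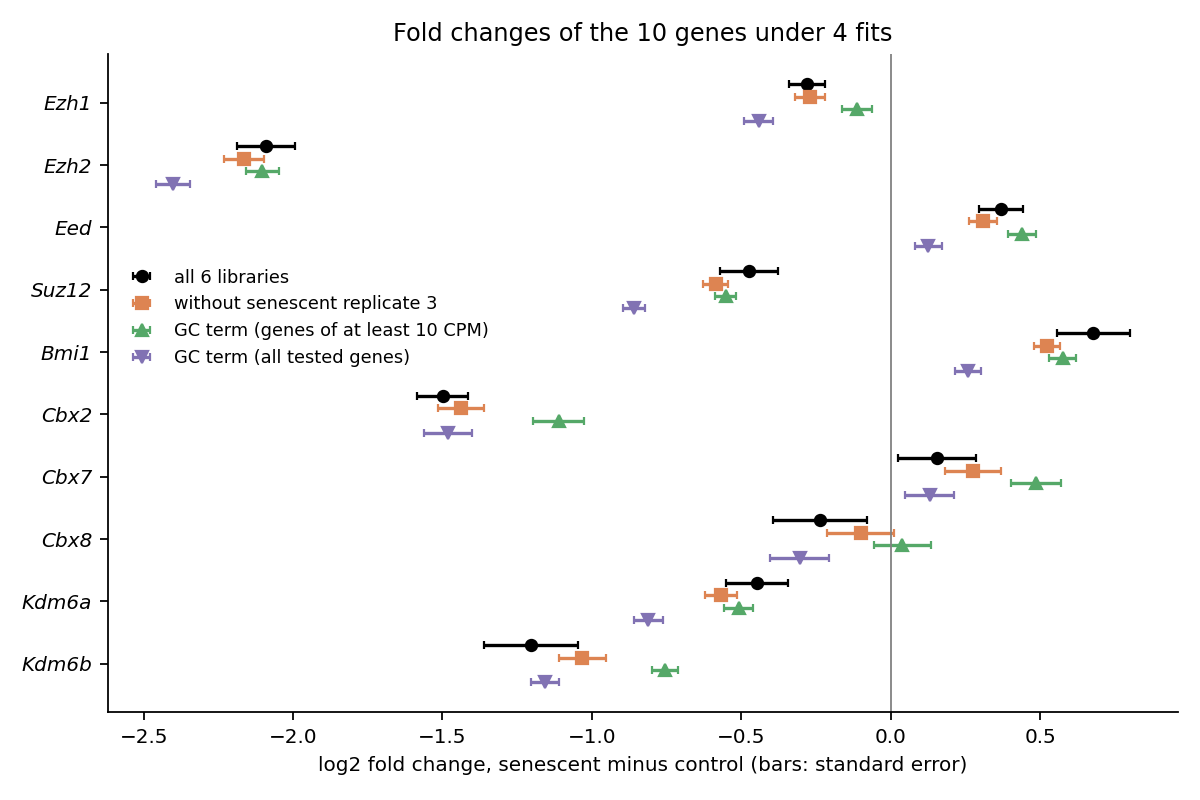
Log2 fold change of senescent against control cells (horizontal axis, bars show the standard error) for the 10 genes under 4 edgeR fits: all 6 libraries, without senescent replicate 3, and with a GC term fitted from genes of at least 10 CPM or from all tested genes. Ezh2, Cbx2, Kdm6b, Suz12, Kdm6a and Ezh1 lie below 0 and Eed, Bmi1 and Cbx7 above 0 in each of the 4 fits, while Cbx8 lies on both sides.

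The deviation of senescent replicate 3 from the other senescent libraries, and the contrast between the groups, differed with base composition. Over genes of at least 10 CPM on average, its median log2 difference from replicates 1 and 2 was 0.26 in the lowest of 4 equal bins of GC content and -0.40 in the highest. The same difference of control replicate 1 from the other controls went from 0.08 to -0.13. The contrast itself also differed with GC content: the median log2 difference of senescent from control libraries was 0.14, 0.0060, -0.15 and -0.33 from the lowest to the highest bin. Bmi1, Suz12, Kdm6a and Ezh2 lie in the lowest bin, and Kdm6b, Cbx2, Cbx7 and Cbx8 in the highest. The 10 genes span this range, from 40.2% GC in Bmi1 to 59.6% in Kdm6b. Bmi1, Suz12 and Kdm6a, all under 43% GC, were higher in replicate 3 than in the other senescent libraries by 0.44, 0.33 and 0.35 on the log2 scale. Of the genes over 54% GC, Kdm6b, Cbx8 and Cbx7 dropped by 0.54, 0.39 and 0.35, while Cbx2, at 57.6% GC, dropped by 0.14. Ezh1, at 51.2% GC, differed by -0.00065. Over the 10 genes, which share these libraries, Pearson's r of GC content and the deviation was -0.95 and Spearman's rho was -0.94, given as a description.

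**Figure D3:**
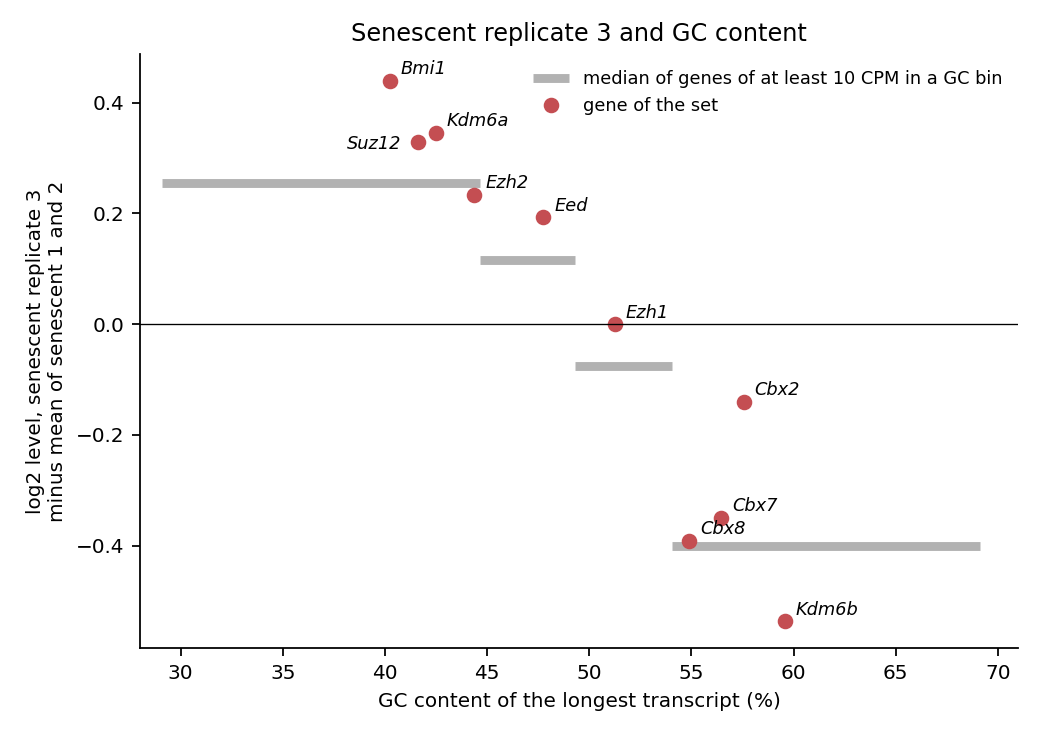
Log2 level in senescent replicate 3 minus the mean of senescent replicates 1 and 2 (vertical axis) against the GC content of the longest transcript in percent (horizontal axis) for the 10 genes (red points), with the median of genes of at least 10 CPM in each of 4 equal GC bins (grey bars). The points fall from Bmi1 at 0.44 to Kdm6b at -0.54, and the grey bars fall from 0.26 to -0.40.

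A GC term was therefore added to the fit after the data had been seen, in 2 forms, and neither is taken as the right one. Fitted from genes of at least 10 CPM, it moved the median log2 fold change of all genes by 0.12, and 40.8% of called genes were lower. Fitted from all tested genes, it moved that median by -0.21, and 61.0% of called genes were lower, where the fit without the term gave 48.6%. Relative to the median of all genes, the 2 forms gave nearly the same values: Ezh2 was at -2.23 and -2.20, Cbx2 at -1.24 and -1.28, Kdm6b at -0.89 and -0.96, Suz12 at -0.68 and -0.66, and Kdm6a at -0.64 and -0.61. On that scale Bmi1 was at 0.45 and 0.46, Cbx7 at 0.36 and 0.33, Eed at 0.31 and 0.33, Ezh1 at -0.24 in both and Cbx8 at -0.09 and -0.10.

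Within a library, the balance between paralogs does not depend on the scaling between libraries. The level per kilobase of Ezh2 made up 56.3%, 55.7% and 55.1% of the sum of Ezh2 and Ezh1 in control and 24.1%, 26.4% and 28.5% in senescent replicates 1 to 3. Ezh2 was thus the higher of the 2 in every control and the lower in every senescent library. The log2 ratio of their counts was 0.066 ± 0.035 in control and -1.75 ± 0.16 in senescent libraries, a difference of -1.82 (-1.99 or -1.96 with the GC term). An exact two-sided permutation test gave p = 0.1, which is the smallest value 3 against 3 libraries can give, and the same holds for the other ratios and sums here.

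The share of Kdm6b in the sum with Kdm6a was 54.7%, 61.6% and 59.5% in control and 49.6%, 51.8% and 35.5% in senescent libraries. The difference in log2 ratio was -0.76, with no overlap between groups, but senescent replicate 3 had the lowest share, and without that library the difference was -0.46. Kdm6b (59.6% GC) and Kdm6a (42.5% GC) lie near opposite ends of the GC range of the 10 genes, and with the GC term their fitted log2 fold changes differed by -0.25 or -0.34. Cbx2 made up 64.7 ± 3.13% of its sum with Cbx8 in control and 43.3 ± 2.67% in senescent cells, and its log2 ratio to Cbx8 differed by -1.26 (exact permutation p = 0.1). The share of Cbx7 in its sum with Cbx8 was 32.6 ± 2.78% in control and 38.6 ± 1.74% in senescent libraries (log2 ratio difference 0.38, exact permutation p = 0.1).

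**Figure D4:**
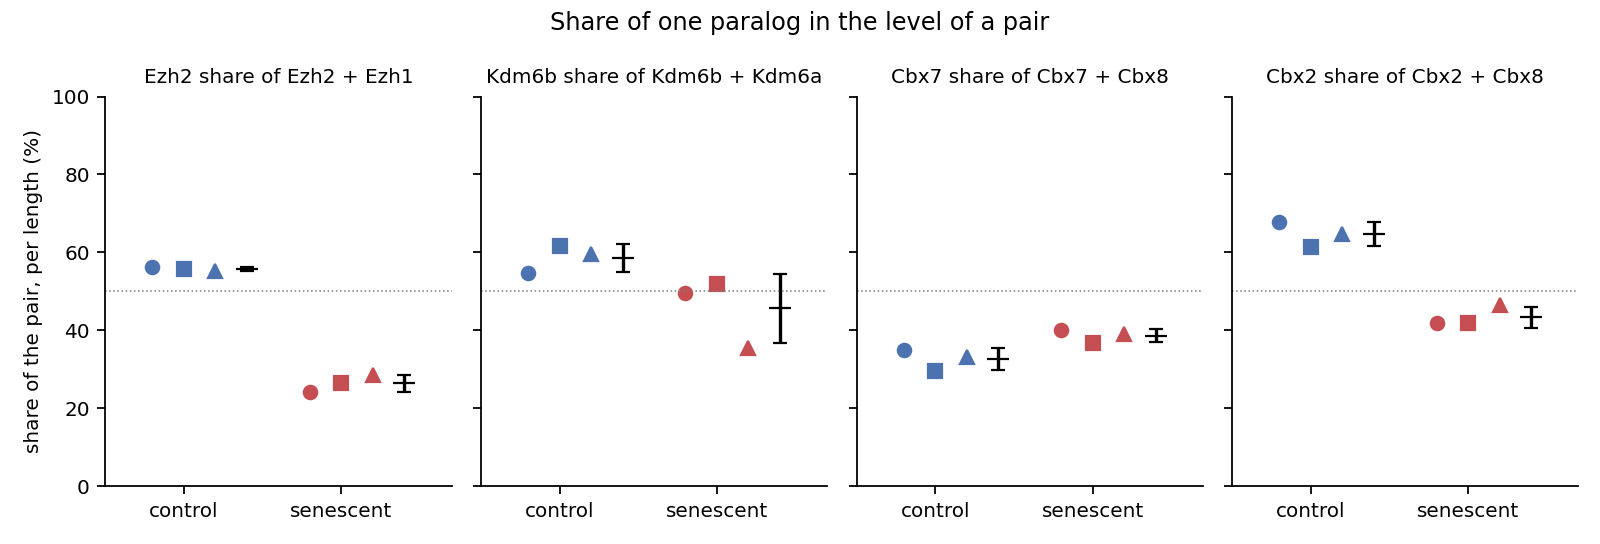
Share of the first gene in the summed level per kilobase of a pair (percent, vertical axis from 0 to 100) in each control (blue) and senescent (red) library, with the mean ± SD of each group in black and a dotted line at equal levels. Ezh2 lies between 55.1% and 56.3% in controls and between 24.1% and 28.5% in senescent libraries, and Cbx2 also lies on both sides of the dotted line.

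Per kilobase of the gene length in the count table, the order of levels in control cells was Eed, Suz12, Bmi1, Ezh2, Ezh1, Kdm6b, Kdm6a, Cbx2, Cbx8 and Cbx7, from 17.2 to 0.982 CPM per kilobase. Neighbours in this order had ranges that did not overlap, apart from Ezh1 (7.37 to 8.17) and Kdm6b (6.19 to 7.55). In senescent cells the order was Eed, Bmi1, Suz12, Ezh1, Kdm6a, Kdm6b, Ezh2, Cbx8, Cbx2 and Cbx7, from 22.1 to 1.10 CPM per kilobase. There the ranges of Eed and Bmi1, of Kdm6a and Kdm6b, of Kdm6b and Ezh2, and of Cbx2 and Cbx7 overlapped. Ezh2 thus went from the fourth place to the seventh. Summed per kilobase, Ezh1 and Ezh2 went from 17.8 ± 1.07 to 8.82 ± 0.236, Kdm6a and Kdm6b from 11.9 ± 0.551 to 6.66 ± 0.122, and Cbx2, Cbx7 and Cbx8 from 6.75 ± 0.495 to 4.16 ± 0.518 CPM per kilobase, none with overlap between the groups.

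Promoters were read from RefSeq on GRCm38.p6, as 250 bases before to 50 after a start, for 8 of the 10 genes, all but Cbx2 and Kdm6b. These starts can differ from the gene spans given above. For Cbx7 the bases before the start were 79932647 to 79932896, far inside its span, which ends at 79971119. The starts of Ezh2, Eed and Cbx8 also lay inside their spans. Motifs were searched on both strands by their letters: E2F sites (TTTCCCGC, TTTCGCGC, TTTGCCGC or TTTGGCGC), the E-box CACGTG, which CLOCK and BMAL1 are known to bind, AP-1 sites (TGACTCA or TGAGTCA) and CHR elements (TTTGAA or TTCGAA). Of 32851 promoters in the table, 2.26% hold an E2F match, 7.15% the E-box, 5.20% an AP-1 match and 19.2% a CHR match. An E2F match occurred in Suz12 and in Ezh2, where it begins at position 4 after the RefSeq start. The E-box occurred in Bmi1, Cbx8 and Kdm6a. CHR matches occurred in Eed, Suz12 and Cbx7, and no AP-1 match was found in the 8 windows. These windows are shown because they hold the letters of E2F sites or E-boxes, in capitals, read on the strand of the gene. Of the genes with the E-box, Bmi1 rose, Kdm6a fell and Cbx8 was not called, and both genes with an E2F match, Ezh2 and Suz12, fell.

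Ezh2, E2F letters, chr6:47595009-47595038, minus strand: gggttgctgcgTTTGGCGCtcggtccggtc

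Suz12, E2F letters, chr11:79992860-79992921, plus strand: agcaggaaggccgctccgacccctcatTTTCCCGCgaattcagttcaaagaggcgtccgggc

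Bmi1, E-box letters, chr2:18676776-18676835, plus strand: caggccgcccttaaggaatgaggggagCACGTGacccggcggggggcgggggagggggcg

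Cbx8, E-box letters, chr11:119040979-119041038, minus strand: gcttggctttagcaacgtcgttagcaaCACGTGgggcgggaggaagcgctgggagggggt

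Kdm6a, E-box letters, chrX:18162521-18162574, plus strand: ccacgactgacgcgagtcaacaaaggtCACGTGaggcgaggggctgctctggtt

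A match in these letters is a description and not a bound site. Binding data were not analysed here.

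Of 11 listed partners of PRC2, 10 were tested, with 5 lower, 2 higher and 3 not called, and a median log2 fold change of -0.39 against 0.0085 over all tested genes. The share called, 70%, was that of all tested genes, 70.3%. Phf19, a Polycomb-like protein that guides PRC2 to chromatin, fell from 15.0 ± 1.12 to 1.13 ± 0.253 CPM (log2 fold change -3.72, SE 0.16, edgeR adjusted p = 4.31e-07). Jarid2, which recruits PRC2, fell from 17.0 ± 0.371 to 8.79 ± 0.529 CPM (-0.95), and the histone-binding subunit Rbbp4 fell from 244 ± 13.0 to 158 ± 13.5 CPM (-0.63). Aebp2, a DNA-binding partner, rose from 84.9 ± 0.548 to 132 ± 18.3 CPM (0.64, edgeR adjusted p = 0.000511). Lcor was called higher at the limit (0.27, edgeR adjusted p = 0.0495), and the higher count was 1 with the replicate block, with limma-voom, with no filter beyond 1 count, and when any of the 3 controls or senescent replicate 1 was left out.

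Of the 21 other PRC1 subunits, 8 were higher, 8 lower and 5 not called, with a median log2 fold change of 0.20. The share called, 76.2%, lay near the 70.3% of all tested genes. Scml2 fell from 6.58 ± 0.526 to 1.03 ± 0.102 CPM (-2.66), Kdm2b, which brings PRC1 to CpG islands, from 29.1 ± 0.770 to 18.6 ± 1.27 CPM (-0.64), and Pcgf2, the paralog of Bmi1, from 25.5 ± 2.23 to 14.9 ± 1.07 CPM (-0.77). Pcgf5 rose from 5.07 ± 0.416 to 10.3 ± 1.19 CPM (1.02), and Rybp and Yaf2, paralogs of variant PRC1, rose from 13.3 ± 0.510 to 20.8 ± 1.45 CPM (0.65) and from 12.0 ± 0.945 to 23.7 ± 4.10 CPM (0.99). Without control replicate 2 the lower count was 5, and with the GC term fitted from genes of at least 10 CPM the higher count was 13. Of the catalytic subunits, Ring1 was called lower (-0.60, edgeR adjusted p = 0.0168) and Rnf2 had a log2 fold change of 0.33 (edgeR adjusted p = 0.0514). Ring1 and Rnf2 fall outside the rule by which genes were named and were chosen after their values were seen.

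Among enzymes that remove ubiquitin from H2A and their ASXL cofactors, 3 of 5 were lower and 1 higher, with a median of -0.51. The share called was 80%, against 70.3% of all tested genes. The lower count was 2 with limma-voom and when control replicate 1, control replicate 2 or senescent replicate 2 was left out. Asxl1 fell from 106 ± 0.796 to 68.2 ± 2.89 CPM (-0.64), and Bap1, the enzyme of that complex, from 61.1 ± 1.60 to 43.0 ± 4.39 CPM (-0.51). Asxl3 fell from 0.892 ± 0.335 to 0.485 ± 0.115 CPM (-0.91, edgeR adjusted p = 0.0342), with overlap between the groups. Usp16 rose from 65.2 ± 0.845 to 91.3 ± 9.87 CPM (0.49), and with the GC term fitted from all tested genes none of the 5 was called higher.

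Of the 9 partners of KDM6A in the KMT2C/KMT2D complexes, 4 were lower, 1 was higher and 4 were not called. Their median log2 fold change was -0.17, and the share called was 55.6%, against 70.3% of all tested genes. Pagr1a fell from 27.2 ± 1.86 to 11.3 ± 2.01 CPM (-1.27, edgeR adjusted p = 7.83e-05), its partner Paxip1 from 43.4 ± 1.99 to 29.5 ± 1.92 CPM (-0.56), and Dpy30 from 19.8 ± 0.294 to 16.1 ± 0.462 CPM (-0.30). Wdr5 rose from 55.8 ± 1.78 to 66.1 ± 0.865 CPM (0.25). With the GC term the higher count was 3 or 0, and the lower count reached 8 in the latter. The methyltransferases Kmt2c and Kmt2d, chosen after their values were seen, were not called (-0.15 and -0.17).

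**Figure D5:**
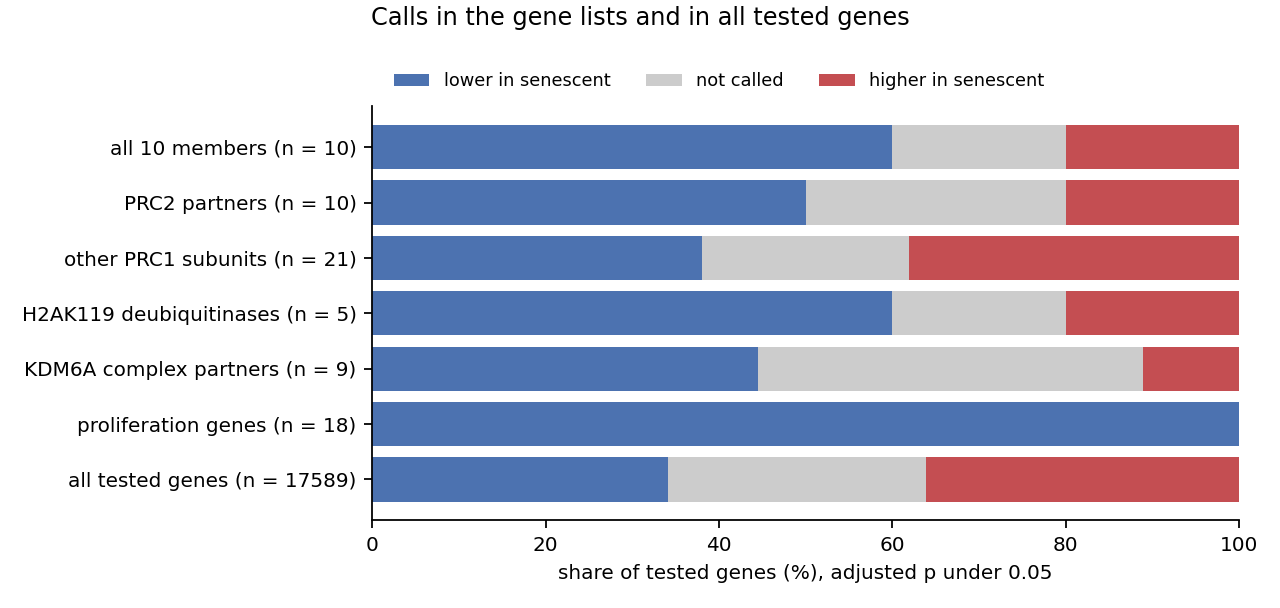
Percent of tested genes called lower (blue), not called (grey) or called higher (red) in the senescent group, by an adjusted p under 0.05 (horizontal axis from 0 to 100), for the 10 genes, 5 other gene lists and all 17589 tested genes. Proliferation genes are all lower, while the Polycomb lists hold both directions and all tested genes are split 34.1% to 36.2%.

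Both genes listed for the Ink4/Arf and Ink4b locus rose, where 36.2% of all tested genes were called higher. Cdkn2a, whose transcripts encode p16 and ARF and were counted together, went from 1.20 ± 0.0738 to 4.50 ± 1.50 CPM (log2 fold change 1.90, SE 0.27, edgeR adjusted p = 0.000398). Cdkn2b, which encodes the related inhibitor p15, went from 4.28 ± 0.242 to 14.5 ± 0.897 CPM (1.76, SE 0.09, edgeR adjusted p = 1.20e-06).

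Of 37 developmental regulators that Polycomb complexes are known to cover in embryonic stem cells, 29 stayed under 1 CPM in every library. The filter on low counts kept 16, of which 10 were called higher and 4 lower. Over all tested genes, 36.2% were called higher and 34.1% were called lower. A gene that passed through the senescent group alone had to differ, and the count of higher calls depended on that filter, at 24 with no filter beyond 1 count and 1 with at least 10 counts in every library. It was 16 without control replicate 3. Over all 37, the senescent libraries were all above the controls for 23 (62.2%), against 34.2% of 22032 protein-coding genes. Of 15 with 0 counts in all controls, 10 were counted in every senescent library (66.7%), against 19.7% of the 5522 protein-coding genes with 0 counts in all controls. Some of these counts were small, such as 2 for Neurog2 in senescent replicate 3. The totals of the senescent libraries were mostly larger than those of the controls. The list was chosen with earlier results of these data known, so the shares are a description and not a test. Gata4, a heart and endoderm factor, was at 0 counts in control cells and at 0.857 ± 0.126 CPM in the senescent group. Against a floor of 3 counts per library, Gata4 was at least 15.0-fold higher in senescent cells. Eomes went from 0.00668 ± 0.0116 to 1.30 ± 0.170 CPM. Its counts in control replicates 1 to 3 were 1, 0 and 0, under that floor. Dlx1 and Lhx2 had log2 fold changes of -0.74 and -1.40, both called lower.

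The genes closest in profile to Ezh2, Bmi1 and Kdm6b were found by the root mean square difference of log2 CPM over the 6 libraries, centred for each gene, among tested genes of at least 1 CPM. For Ezh2 they were Dbf4 (0.032), Sass6 (0.036) and Moxd1 (0.049). For Bmi1 they were Pawr (0.013), Ube3a (0.016) and Fnip1 (0.020), and for Kdm6b they were Loxl1 (0.020), Lmnb2 (0.028) and Mospd3 (0.031). Dbf4 went from 52.8 to 12.1 CPM, Pawr from 21.1 to 33.8 CPM and Loxl1 from 178 to 76.7 CPM.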

How the data were processed

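Polyadenylated RNA of 3 control and 3 senescent MAF samples was sequenced from stranded libraries (200 ng RNA, paired reads of 100 bases). Per the study's methods and the labels, the authors mapped reads to mm10 with STAR in MAPRSeq, counted them per gene with Subread and deposited raw counts without normalization. How multi-mapping reads were handled was not given in the sources used here. The 37 mitochondrial genes hold 0 counts. Groups and replicate numbers came from the sample labels.

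From the counts, genes were filtered with filterByExpr, scaled by TMM and compared with edgeR's robust quasi-likelihood test (edgeR 4.0.16, R 4.3.3), two-sided, with Benjamini-Hochberg adjustment over 17589 genes. The common biological coefficient of variation was 0.100. Levels are TMM-scaled CPM computed here, and a pseudocount of 0.5 was used for ratios and log2 levels. GC content came from the GENCODE annotation of GRCm38 (longest transcript). Tests were checked on simulated data in which few genes changed. That check does not cover data such as these, where most tested genes were called. Reads carried no molecular identifiers, so limits from 3 counts cover counting error only.

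The members and lists were chosen with earlier results of these data known. Of each list the 3 called genes with the smallest p in each direction were named, with exceptions stated and 2 genes not reported here, and 3 nearest profiles for Ezh2, Bmi1 and Kdm6b. Alternatives were other scalings and filters, edgeR's exact test, DESeq2 1.42.0, limma-voom (limma 3.58.1), a replicate block, another pseudocount (5) and each library left out. The GC term, a smooth trend per library with 5 degrees of freedom, was chosen after seeing the data: it was first fitted from all tested genes, then, because this moved the median of all genes, from genes of at least 10 CPM, and both are given.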

Additional observations from a re-analysis of the deposited data

How the results depend on the processing

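The count of the 10 genes called was 8 or 9, and 3 passed the study's limit, in every alternative except the GC term fitted from genes of at least 10 CPM, where 2 did. With the replicate block, added because both groups carry the numbers 1 to 3, 8 of the 10 genes were called and the log2 ratio of Ezh2 to Ezh1 stayed at -1.82. Correlations of deviations of same-numbered libraries were -0.37, 0.29 and -0.26, while control replicate 1 with senescent replicate 3 gave 0.50. Both of those libraries also deviated with GC content, so these correlations cannot tell whether the numbers pair the samples. Over all genes the replicate block left 11624 calls where 12365 were made without it. Of 160 member fold changes under alternatives, 155 kept direction and call. Cbx8 reversed to 0.039 (edgeR adjusted p = 0.719) with the GC term fitted from genes of at least 10 CPM and was called at -0.30 with the other, Cbx7 was called in 2 alternatives, and Ezh1 lost its call in 1. With the GC term fitted from genes of at least 10 CPM and from all tested genes, the log2 ratio of Kdm6b to Kdm6a moved from -0.76 to -0.25 and -0.34, and that of Ezh2 to Ezh1 to -1.99 and -1.96. The 2 GC fits differ in the genes used to fit the trend, and which of them is nearer the truth was not tested. Past the study's limit, 5300 genes were counted, 7761 with no filter beyond 1 count and 3483 with at least 10 counts in every library. With 3 libraries a group, an exact permutation test cannot fall under p = 0.1.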
